A study of Homo sapiens with 8 samples.

Results

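ACBI1 did not do the same thing to the RNA of H1975 and of HCC44 cells, and the genes, pathways and gene classes whose response differed between these lines are described here. ACBI1 is a bifunctional degrader that joins the bromodomain proteins SMARCA2, SMARCA4 and PBRM1 to the VHL ubiquitin ligase, so that the proteasome destroys them. H1975 and HCC44 are established human lung cancer cell lines. The 8 RNA libraries fell into 4 groups of 2: H1975 with DMSO (the solvent control), H1975 with ACBI1, HCC44 with DMSO and HCC44 with ACBI1, each kept for 96 hours in RPMI medium with serum. The genotype is labelled WT in every group and the ACBI1 dose is labelled 1 mM, a unit that the files cannot check. All 8 libraries entered the comparison, which asked for each gene whether its log2 change from DMSO to ACBI1 in HCC44 equalled that in H1975. Of 61228 gene names, 21307 had enough counts to be tested.

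SMARCA2 and SMARCA4 are the alternative ATPase motors of the SWI/SNF (BAF and PBAF) complexes, which move nucleosomes and keep enhancers and promoters open, while PBRM1 is a subunit of the PBAF form. Which regions depend on the complex differs between cell types, because lineage-specific transcription factors recruit it. Polycomb complexes oppose it at many developmental genes.

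Gene-assigned counts lay between 62467286 and 70455517 per library, and the 2 libraries of a group correlated at 0.992 or more on log2 CPM (counts scaled to library size), against at most 0.844 between lines. The labels do not say whether replicates came from separate cultures, so p-values measure only the spread between these samples, which may be technical. The summed level of 6 epithelial markers was 5135 to 5391 CPM in H1975 with DMSO and 2330 to 2807 CPM with ACBI1, but 939.6 to 980 CPM in HCC44 with DMSO and 1199 to 1657 CPM with ACBI1. That rise in HCC44 was mostly KRT7. There KRT8 was lower with ACBI1, at 146 and 157 CPM against 228 and 205 CPM, and KRT18 and KRT19 overlapped between treatments. EPCAM and CDH1 were higher with ACBI1 but at most 19.4 CPM in HCC44. Of 6 lung marker genes, 2 or 3 were at 0 in every group, and their sum stayed at or below 0.54 CPM in HCC44, so the labelled lung origin was hardly visible in that line. The 4 immune markers summed to at most 3.43 CPM and the 3 endothelial markers to at most 4.01 CPM in any library. The 4 fibroblast markers, nearly all COL1A1, summed to 44.4 to 69.02 and 23.01 to 28.9 CPM in H1975 with DMSO and ACBI1 and to 72.1 to 90.4 and 204 to 408 CPM in HCC44.

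The response differed between the lines for 3967 genes, 18.6% of those tested, at a Benjamini-Hochberg adjusted p under 0.05 (edgeR quasi-likelihood F-test over all 21307 genes). Among protein-coding genes the share was 23.4%, the nearer background for lists of such genes. Of the 3967, HCC44 responded more positively for 2178 (10.2% of tested genes) and more negatively for 1789 (8.4%). That split leans on the scaling: with library totals in place of TMM factors, 1723 were more positive and 2530 more negative, and the median difference of all genes moved by -0.11 on the log2 scale. The median change of all genes within a line moved by 0.203 in H1975 and 0.091 in HCC44, so the medians per line given for gene lists also depend on the scaling. Most of the differing genes, 2917, changed in 1 line only: 933 rose and 795 fell in HCC44 alone, and 523 rose and 666 fell in H1975 alone. In 458 genes both lines changed the same way by unequal amounts, and in 116 neither line's own change was called. By themselves, 31.3% of tested genes changed in H1975 (14.6% rose and 16.7% fell) and 34.9% in HCC44 (17.5% rose and 17.4% fell). The remaining 476 differing genes (2.23%) changed in opposite directions, 285 rising in HCC44 and falling in H1975 (1.34%) and 191 the reverse (0.896%). Each library is an average over the cells of a dish, so more cells with a transcript and more transcript per cell cannot be told apart. Leaving out 1 library at a time gave 2341 (without HCC44 DMSO 1) to 4134 differing genes. It was 2481 without H1975 ACBI1 2 and 2598 without HCC44 DMSO 2.

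**Figure D1:**
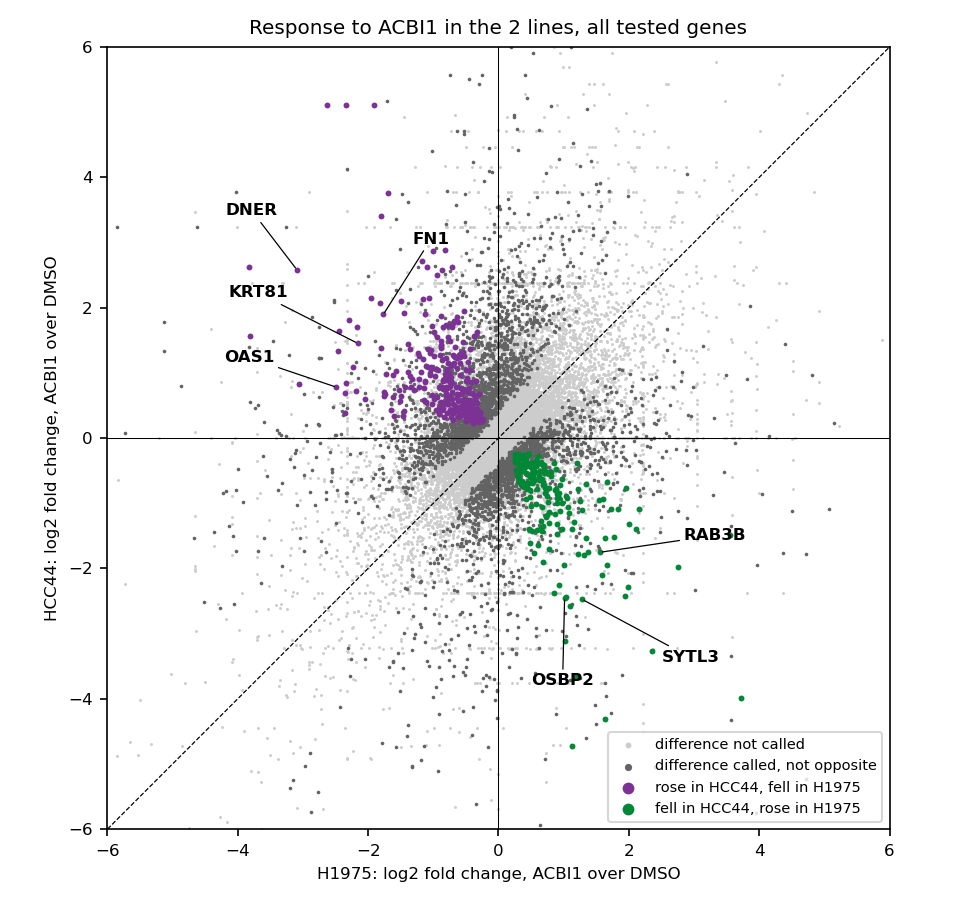
Log2 fold change from DMSO to ACBI1 in H1975 (horizontal) against HCC44 (vertical) for each tested gene, with the dashed line marking equal responses; 58 genes lie beyond the axes at 6. Purple points are the 285 genes that rose in HCC44 and fell in H1975, green points the 191 that did the reverse, and dark grey points the other genes whose difference was called.

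Most opposite changes narrowed the gap between the lines, 163 of the 285 and 134 of the 191. Of the 285 genes that rose in HCC44 and fell in H1975, 205 were lower in HCC44 than in H1975 with DMSO, and for 106 of these the order of the lines was exchanged with ACBI1. Of the 191 that fell in HCC44 and rose in H1975, 163 were higher in HCC44 with DMSO, and 88 exchanged order. The starting level enters both the order and the change, so these counts describe the pattern and were not tested. Without 1 library the opposite count ran from 232 (without H1975 ACBI1 2) to 548 (without HCC44 ACBI1 1); it was 289, 306, 302, 289 and 283 without H1975 DMSO 1, H1975 DMSO 2, H1975 ACBI1 1, HCC44 DMSO 1 and HCC44 DMSO 2.

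The 16 genes with the strongest opposite changes, 8 in each direction, were chosen for the size of those changes and for treatments that did not overlap within a line, so both are a description of the choice. Of the 8 that rose in HCC44 and fell in H1975, FN1, THBS1 and SPOCK1 encode matrix proteins and KRT81 a keratin. FN1, at chr2:215360440-215436172 (hg38), encodes fibronectin, the matrix glycoprotein that integrins grip. FN1 was at 987 and 1389 CPM with DMSO and 326 and 372 CPM with ACBI1 in H1975, and at 29.95 and 21.6 CPM with DMSO and 91.1 and 101 CPM with ACBI1 in HCC44. FN1 stayed higher in H1975 with either treatment. Its log2 change was -1.77 in H1975 and 1.897 in HCC44, a difference of 3.66 ± 0.27 (SE; edgeR adjusted p = 0.00012). THBS1, at chr15:39581079-39599466, encodes thrombospondin 1, another matrix glycoprotein. THBS1 was at 677 and 691 CPM with DMSO and 278 and 245 CPM with ACBI1 in H1975, and at 79.5 and 54.4 CPM with DMSO and 189.7 and 174 CPM with ACBI1 in HCC44. THBS1 also stayed higher in H1975, and the difference was 2.83 ± 0.22 (adjusted p = 7.83e-05). SPOCK1 was at 132 and 149.8 CPM with DMSO and 41.01 and 39.9 CPM with ACBI1 in H1975, and at 40.3 and 46.003 CPM with DMSO and 101 and 124 CPM with ACBI1 in HCC44; the gene encodes the proteoglycan testican 1. The lines exchanged order, with a difference of 3.18 ± 0.17 (adjusted p = 6.7e-06).

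KRT81, a hair-type keratin at chr12:52285913-52291534, behaved likewise from the other starting side. KRT81 was at 38.9 and 44.3 CPM with DMSO and 9.896 and 8.68 CPM with ACBI1 in H1975, and at 503 and 545 CPM with DMSO and 1281 and 1590.3 CPM with ACBI1 in HCC44. It was already higher in HCC44 and the gap widened, with a difference of 3.62 ± 0.18 (adjusted p = 5.15e-06); reads may be shared with the similar keratin KRT86. DNER, which encodes a transmembrane Notch ligand, had the largest difference among the 16 genes with the strongest opposite changes, 5.68 ± 0.65 (adjusted p = 0.00179). DNER was at 10.1 and 10.8 CPM with DMSO and 1.28 and 1.16 CPM with ACBI1 in H1975, and at 5.99 and 9.03 CPM with DMSO and 25.2 and 64.995 CPM with ACBI1 in HCC44. The 2 HCC44 libraries with ACBI1 lay far apart, and its decrease in H1975 fell short of the threshold without H1975 ACBI1 1 or H1975 ACBI1 2. SERTAD4, a SERTA domain protein gene, and NREP, a gene named for neuronal regeneration, were lower expressed. SERTAD4 was at 8.14 and 9.23 CPM with DMSO and 3.78 and 3.61 CPM with ACBI1 in H1975, and at 2.07 and 2.49 CPM with DMSO and 5.99 and 5.32 CPM with ACBI1 in HCC44. NREP was at 26.2 and 35.4 CPM with DMSO and 11.1 and 15.2 CPM with ACBI1 in H1975, and at 3.56 and 3.09 CPM with DMSO and 7.49 and 8.35 CPM with ACBI1 in HCC44. The differences were 2.54 ± 0.26 and 2.48 ± 0.28 (adjusted p = 0.000218 and 0.000343). OAS3 completed this group and is described with the interferon genes.

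Vesicle traffic, steroid and lipid genes were among those that fell in HCC44 and rose in H1975. RAB3B, at chr1:51907956-51990764, encodes a small GTPase of secretory vesicles. RAB3B was at 1.93 and 2.500 CPM with DMSO and 5.77 and 7.32 CPM with ACBI1 in H1975, and at 66.3 and 90.8 CPM with DMSO and 24.9 and 21.7 CPM with ACBI1 in HCC44. H1975 stayed below HCC44 throughout, and the difference was -3.31 ± 0.27 (adjusted p = 7.09e-05). SYTL3, at chr6:158650014-158764876, encodes a synaptotagmin-like effector of RAB27. SYTL3 was at 4.302 and 4.87 CPM with DMSO and 10.5 and 11.8 CPM with ACBI1 in H1975, and at 9.57 and 8.37 CPM with DMSO and 1.79 and 1.43 CPM with ACBI1 in HCC44. HCC44 began above H1975 and ended below it, a difference of -3.76 ± 0.27 (adjusted p = 3.08e-05). OSBP2 encodes an oxysterol-binding protein and showed the same exchange. OSBP2 was at 25.01 and 23.3 CPM with DMSO and 47.3 and 50.2 CPM with ACBI1 in H1975, and at 51.7 and 64.2 CPM with DMSO and 10.9 and 10.3 CPM with ACBI1 in HCC44. Its difference was -3.47 ± 0.18 (adjusted p = 5.4e-06).

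The chemokine gene CXCL16, whose product binds the receptor CXCR6, also exchanged order. CXCL16 was at 7.53 and 7.85 CPM with DMSO and 24.4 and 22.4 CPM with ACBI1 in H1975, and at 28.1 and 19.7 CPM with DMSO and 12.99 and 11.9 CPM with ACBI1 in HCC44. Its difference was -2.55 ± 0.24 (adjusted p = 0.000123). SH2D2A was at 9.85 and 9.23 CPM with DMSO and 18.99 and 22.9 CPM with ACBI1 in H1975, and at 139 and 134 CPM with DMSO and 56.3 and 47.4 CPM with ACBI1 in HCC44; this gene for a signalling adaptor stayed higher in HCC44 and differed by -2.53 ± 0.17 (adjusted p = 2.56e-05). HSD11B2 encodes the enzyme that inactivates cortisol, and PAQR5 a membrane progestin receptor. HSD11B2 was at 3.79 and 3.003 CPM with DMSO and 7.04 and 6.35 CPM with ACBI1 in H1975, and at 9.59 and 10.5 CPM with DMSO and 4.097 and 5.93 CPM with ACBI1 in HCC44. PAQR5 was at 12.6 and 13.8 CPM with DMSO and 23.04 and 27.97 CPM with ACBI1 in H1975, and at 15.96 and 17.8 CPM with DMSO and 6.67 and 8.87 CPM with ACBI1 in HCC44. The differences were -1.98 ± 0.30 and -2.07 ± 0.23 (adjusted p = 0.00164 and 0.000345). The long non-coding RNA COSMOC differed by -2.37 ± 0.41 (adjusted p = 0.00347), but 64.8% of its exonic bases lie under another gene, ELP2, and its opposite call was lost without H1975 DMSO 1, H1975 DMSO 2 or H1975 ACBI1 2. Of the 16 genes with the strongest opposite changes, 14 were opposite under all 16 other settings and single-library omissions, DNER and COSMOC being the exceptions.

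**Figure D2:**
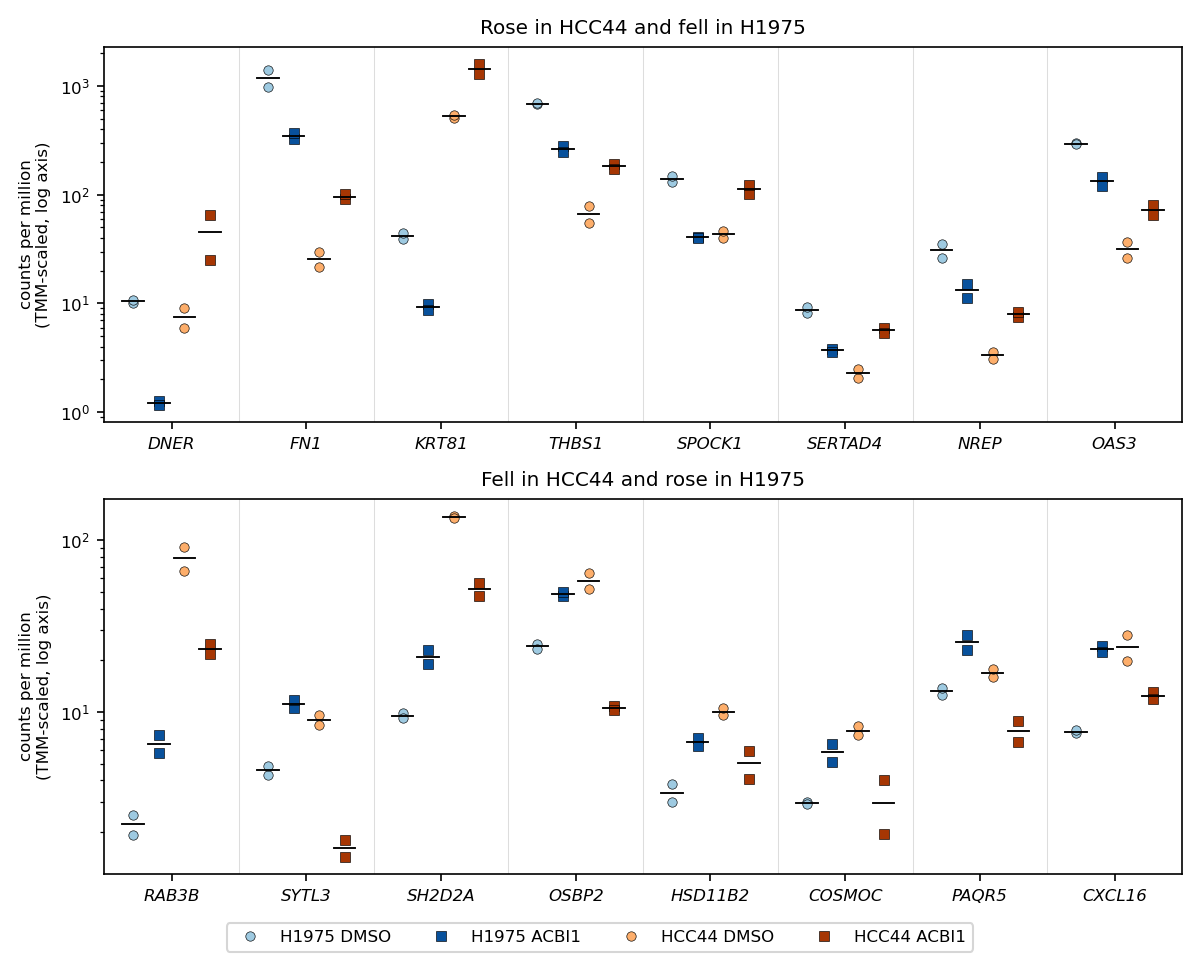
TMM-scaled CPM in each of the 8 libraries (log axis) for the 8 genes in each direction with the strongest opposite responses; black lines are group means. In the upper panel ACBI1 squares lie below DMSO circles in H1975 and above them in HCC44, as for FN1 at 326 and 372 CPM after 987 and 1389 CPM in H1975, and in the lower panel the pattern is reversed.

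Interferon-stimulated genes responded differently as a group. Interferons act through the kinases JAK1 and TYK2 and the factors STAT2 and IRF9, which bind an element called the ISRE and switch on antiviral effectors. Of 58 such genes tested, 40 differed and in 39 of them HCC44 responded more positively, against 18.6% and 10.2% of all tested genes; the exception was IFITM2, a membrane restriction factor (0.05 in H1975 and -0.71 in HCC44). The median difference was 0.85, against 0.04 over all tested genes, made of a median log2 change of -1.28 in H1975 and -0.34 in HCC44. The lines began apart and ended closer: the summed level of the 58 genes was 7111 and 7259.6 CPM with DMSO and 3167 and 3054 CPM with ACBI1 in H1975, and 2880.5 and 3079.9 CPM with DMSO and 2462 and 2688 CPM with ACBI1 in HCC44. With ACBI1 the H1975 sum came close to that of HCC44 with DMSO. The antiviral effectors had a median difference of 1.19, and of 39, 36 fell in H1975, while in HCC44 8 rose and 19 fell.

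The members that went opposite ways were OAS1, OAS3, IFI35, IFI44, IFI6 and IFIT1. OAS1 and OAS3, neighbours on chromosome 12 (chr12:112906777-112933222 and chr12:112938352-112973249), encode enzymes that sense double-stranded RNA and activate RNase L. OAS1 was at 47.5 and 43.9 CPM with DMSO and 10.3 and 6.01 CPM with ACBI1 in H1975, and at 5.36 and 4.78 CPM with DMSO and 9.17 and 8.24 CPM with ACBI1 in HCC44. OAS3 was at 296 and 295 CPM with DMSO and 145 and 119 CPM with ACBI1 in H1975, and at 26.3 and 36.4 CPM with DMSO and 65.5 and 79.9 CPM with ACBI1 in HCC44. The treatments of OAS1 did not overlap within a line, the lines stayed in the same order for OAS3, and the differences were 3.27 ± 0.30 and 2.37 ± 0.23 (adjusted p = 0.000133 and 0.000222). IFI44, an interferon-induced gene at chr1:78649796-78664078, showed the same pattern. IFI44 was at 93.6 and 84.2 CPM with DMSO and 38.4 and 33.8 CPM with ACBI1 in H1975, and at 11.2 and 11.1 CPM with DMSO and 15.9 and 21.4 CPM with ACBI1 in HCC44. IFI35 was at 42.9 and 44.7 CPM with DMSO and 22.3 and 22.9 CPM with ACBI1 in H1975, and at 14.96 and 14.3 CPM with DMSO and 31.1 and 30.02 CPM with ACBI1 in HCC44. Neither gene overlapped between treatments in either line, with differences of 2.04 ± 0.20 and 2.01 ± 0.15 (adjusted p = 0.000155 and 3.4e-05), and IFI6, an interferon-induced membrane protein gene, differed by 1.93 ± 0.14. IFIT1, which encodes a protein that binds foreign RNA ends, was under 2 CPM in HCC44. Of these, OAS1 was not called in HCC44 without HCC44 DMSO 1, HCC44 DMSO 2 or HCC44 ACBI1 1, nor IFIT1 and IFI6 without HCC44 DMSO 1, HCC44 DMSO 2 or HCC44 ACBI1 2.

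IFI44L, next to IFI44, fell in both lines but far more in H1975. IFI44L was at 138 and 138 CPM with DMSO and 15.9 and 11.6 CPM with ACBI1 in H1975, and at 19.3 and 21.8 CPM with DMSO and 11.5 and 14.003 CPM with ACBI1 in HCC44. All ACBI1 libraries were below the DMSO libraries of their line, and the difference was 2.64 ± 0.21 (adjusted p = 7.09e-05). MX1, a dynamin-like antiviral GTPase, changed by -1.896 in H1975 and -0.56 in HCC44. Of 10 signalling genes 5 differed, all more positive in HCC44. Among them, the kinase gene JAK1 changed by -0.62 in H1975 and 0.22 in HCC44. ISG15, the ubiquitin-like modifier, fell in both lines, and the 95% interval of its difference was -0.57 to 0.73. USP18, the protease that removes ISG15, rose in HCC44 alone (0.701 ± 0.16); USP18 lost its call without H1975 ACBI1 2 or HCC44 DMSO 2 (edgeR adjusted p 0.0501 to 0.0815). Without 1 library the interferon count ran from 27 to 37, and the median difference from 0.74 to 0.98.

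The promoters are shown because the same letters recur in them. In the RefSeq window of 250 bases before to 50 after the start site, the ISRE core on either strand (GAAA, any 2 bases, GAAA) was present in 64.5% of 31 differing interferon-stimulated genes with an entry, in 60% of all 45 with an entry, and in 3.65% of 27305 promoters of the table. The 150 bases before the start site are printed 5′ to 3′ on the gene's strand, from RefSeq on GRCh38.p14, with every match in capitals; a capital run beginning with TTTC is the match on the other strand. A match describes the letters and not a bound site.
OAS3 (chr12:112938324-112938473, plus strand): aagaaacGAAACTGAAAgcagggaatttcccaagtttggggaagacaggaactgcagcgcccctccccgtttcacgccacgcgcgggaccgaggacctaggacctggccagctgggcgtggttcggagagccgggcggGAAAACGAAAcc
IFI44 (chr1:78649639-78649788, plus strand): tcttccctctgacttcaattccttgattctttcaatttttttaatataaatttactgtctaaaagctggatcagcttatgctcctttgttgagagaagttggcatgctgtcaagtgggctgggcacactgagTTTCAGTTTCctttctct
IFI44L (chr1:78620298-78620447, plus strand): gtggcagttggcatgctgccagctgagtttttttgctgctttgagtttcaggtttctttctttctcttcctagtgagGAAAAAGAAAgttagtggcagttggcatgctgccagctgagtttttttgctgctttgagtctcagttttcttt
IFI6 (chr1:27672193-27672342, minus strand): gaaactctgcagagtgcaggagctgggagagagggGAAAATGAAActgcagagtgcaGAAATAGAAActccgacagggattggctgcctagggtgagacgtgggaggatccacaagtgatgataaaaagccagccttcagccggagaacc
The OAS3 and IFI6 stretches each hold 2 matches and the others 1. In OAS3 the nearer match begins 12 bases before the RefSeq start site, in IFI44 18, in IFI44L 73 and in IFI6 93. For OAS3 the RefSeq start site lies downstream of the GENCODE gene start given above. Most of its printed bases, with the nearer match, therefore fall inside that gene span. Among the 214 genes with an entry that rose in HCC44 and fell in H1975, 6.08% had a match.

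Genes upstream and downstream of interferon differed in both directions. Of 15 nucleic acid sensors and adaptors 4 differed (26.7%), a share near the 23.4% of protein-coding genes (18.6% of all tested genes). ADAR, the RNA editing enzyme, MAVS, the adaptor of RNA sensing, and STING1, the adaptor of DNA sensing, were more positive in HCC44. CGAS, the DNA sensor, was more negative. ADAR changed by -0.57 in H1975 and 0.12 in HCC44. STING1 lost its call without H1975 DMSO 1, H1975 DMSO 2, H1975 ACBI1 2, HCC44 DMSO 1, HCC44 DMSO 2 or HCC44 ACBI1 2 (edgeR adjusted p 0.0638 to 0.147) and with scaling by library totals (0.0575); MAVS lost its call without H1975 DMSO 2, H1975 ACBI1 1, H1975 ACBI1 2, HCC44 DMSO 1, HCC44 DMSO 2 or HCC44 ACBI1 1 (edgeR adjusted p 0.0572 to 0.189) and in DESeq2 (0.0518) and with DESeq2-type size factors (0.0576) and with scaling by library totals (0.0792); CGAS lost its call without HCC44 DMSO 2 (edgeR adjusted p 0.0664). The sensor count was 2 with library totals or without H1975 ACBI1 2 or HCC44 DMSO 1, and 1 without HCC44 DMSO 2. In antigen presentation 7 of 22 (31.8%) differed. Of these, 4 were more positive (ERAP1 and PSME2, which trim and cut peptides, and the loading helpers TAPBP and TAPBPL). The other 3 were more negative (HLA-B, CANX and CIITA). ERAP1 changed by -0.83 in H1975 and 0.07 in HCC44. B2M, the shared light chain, changed by -1.003 in H1975 and -0.87 in HCC44, with a 95% interval of the difference of -0.21 to 0.47. Leaving out HCC44 ACBI1 1 raised this count to 11, and leaving out any of H1975 DMSO 2, H1975 ACBI1 1, H1975 ACBI1 2, HCC44 DMSO 1 or HCC44 DMSO 2 lowered it to 4.

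Genes of mitosis rose in HCC44, 58 of 61, while in H1975 3 rose and 1 fell. In dividing cells FOXM1 and the DREAM complex govern them through a promoter element called the CHR. Of 61 tested, 37 differed, all more positive in HCC44, with a median difference of 1.61 from medians of 0.12 in H1975 (0.32 with library totals) and 1.74 in HCC44. The HCC44 level rose to near the H1975 level: the summed level of the 61 genes was 3633 and 3252 CPM with DMSO and 3895 and 3126 CPM with ACBI1 in H1975, and 868 and 1434 CPM with DMSO and 2669 and 3665 CPM with ACBI1 in HCC44. The HCC44 DMSO libraries lay apart, and the count depended on single libraries: 58 of 61 without HCC44 DMSO 2, but 12, 15, 19, 16 and 17 without H1975 DMSO 1, H1975 DMSO 2, H1975 ACBI1 1, H1975 ACBI1 2 and HCC44 ACBI1 2. The median difference kept its sign throughout, at 1.24 to 2.18.

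FOXM1, the factor that drives mitotic transcription, differed by 2.02 ± 0.34 (adjusted p = 0.00694). FOXM1 was at 80.7 and 71.2 CPM with DMSO and 106 and 82.8 CPM with ACBI1 in H1975, and at 11.9 and 18.7 CPM with DMSO and 64.3 and 90.5 CPM with ACBI1 in HCC44. Of the 2 HCC44 libraries with ACBI1, 1 lay within the range of the H1975 libraries and 1 below it, and the change in H1975 was not called. SPC25, a kinetochore protein gene, and KIF18A, a kinesin that aligns chromosomes, differed by 2.22 ± 0.38 and 1.81 ± 0.21 (adjusted p = 0.003401 and 0.000404). MKI67 encodes the proliferation antigen Ki-67 and CDC20 the activator of the anaphase-promoting complex. MKI67 was at 192 and 172 CPM with DMSO and 188 and 141 CPM with ACBI1 in H1975, and at 18.98 and 32.1 CPM with DMSO and 87.3 and 151 CPM with ACBI1 in HCC44. CDC20 was at 83.97 and 74.5 CPM with DMSO and 77.3 and 57.4 CPM with ACBI1 in H1975, and at 8.31 and 16.1 CPM with DMSO and 40.3 and 76.4 CPM with ACBI1 in HCC44. All HCC44 ACBI1 libraries were above the DMSO libraries, while H1975 treatments overlapped for both genes. The differences were 2.37 ± 0.45 and 2.49 ± 0.53 (adjusted p = 0.0131 and 0.0193), and these calls did not hold in every alternative. MKI67 lost its call without H1975 DMSO 1, H1975 DMSO 2, H1975 ACBI1 1 or H1975 ACBI1 2 (edgeR adjusted p 0.0707 to 0.117) and with no filter on low counts (0.103). CDC20 lost its call without H1975 DMSO 1, H1975 DMSO 2, H1975 ACBI1 1, H1975 ACBI1 2 or HCC44 ACBI1 2 (edgeR adjusted p 0.05597 to 0.181) and with no filter on low counts (0.135). CDK1, the mitotic kinase, had a difference of 1.18 ± 0.46 that was not called (adjusted p = 0.127). CDC25B, the phosphatase that activates CDK1, was the only mitotic gene of the list called in opposite directions, rising in HCC44.

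DNA replication genes also responded more positively in HCC44, by smaller amounts. In HCC44 45 of 50 rose and 0 fell, and in H1975 16 rose and 0 fell. Of 50 tested, 32 differed, all more positive in HCC44, with medians of 0.25 in H1975 (0.45 with library totals), 0.90 in HCC44 and 0.79 for the difference. By role, 13 of 17 genes of origin licensing and the helicase, 6 of 15 polymerase and clamp genes and 13 of 18 genes of nucleotide supply and S-phase control differed. ORC1, a subunit of the origin recognition complex, differed by 1.900 ± 0.26 (adjusted p = 0.000982). ORC1 was at 18.2 and 15.5 CPM with DMSO and 18.2 and 15.7 CPM with ACBI1 in H1975, and at 4.26 and 5.58 CPM with DMSO and 16.04 and 20.9 CPM with ACBI1 in HCC44. The H1975 treatments overlapped, and HCC44 came up to their level. PCNA, the sliding clamp, differed by 0.63 ± 0.12, MCM7, a helicase subunit, by 0.94 ± 0.13, and CDC6, the helicase loader, by 1.21 ± 0.18. E2F1, the activator of this programme, rose in both lines, by 0.76 in H1975 and 1.46 in HCC44; E2F1 lost its call without H1975 ACBI1 2 or HCC44 DMSO 1 (edgeR adjusted p 0.0593 to 0.0594). The count was 18, 19 and 20 without H1975 ACBI1 2, H1975 DMSO 1 and HCC44 DMSO 1.

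Here too the promoters are shown for shared letters, printed as above from RefSeq on GRCh38.p14. TTTGAA, the CHR, was present on either strand in 70.6% of 34 differing mitotic genes with an entry and in 15.4% of all 27305 promoters, and TTTNGCGC or TTTCCCGC, which E2F factors can bind, in 69.2% of 26 differing replication genes and in 3.43% of all promoters. These shares are not set beside those of list members that did not differ, so they do not tie the letters to the difference. Capitals mark the CHR in the first 2 and the E2F letters in the last 2 sequences, GCGGGAAA being TTTCCCGC on the other strand.
CDC20 (chr1:43358831-43358980, plus strand): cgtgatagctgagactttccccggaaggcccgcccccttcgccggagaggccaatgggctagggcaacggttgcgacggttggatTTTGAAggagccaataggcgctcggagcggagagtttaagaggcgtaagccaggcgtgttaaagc
MKI67 (chr10:128126424-128126573, minus strand): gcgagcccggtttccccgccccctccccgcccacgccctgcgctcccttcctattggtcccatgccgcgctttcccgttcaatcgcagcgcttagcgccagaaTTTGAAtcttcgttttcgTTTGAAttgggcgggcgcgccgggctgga
E2F1 (chr20:33686386-33686535, minus strand): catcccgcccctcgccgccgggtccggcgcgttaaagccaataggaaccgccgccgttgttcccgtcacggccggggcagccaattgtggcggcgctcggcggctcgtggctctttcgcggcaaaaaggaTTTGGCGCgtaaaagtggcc
PCNA (chr20:5126623-5126772, minus strand): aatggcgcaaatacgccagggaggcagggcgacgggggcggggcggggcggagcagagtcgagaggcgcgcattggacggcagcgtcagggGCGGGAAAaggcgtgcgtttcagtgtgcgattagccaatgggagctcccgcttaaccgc
MKI67 has 2 CHR matches, 47 and 29 bases before the start site, and CDC20 has 1 at 65. The E2F letters begin 20 bases before the start of E2F1 and 59 before that of PCNA.

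Of 15 genes of G1 control 3 differed, a share near the 18.6% of all tested genes: CDKN2B and CDKN2C, inhibitors of CDK4 and CDK6, were more positive in HCC44 and their relative CDKN2D more negative. CDKN2B was at 35.1 and 34.5 CPM with DMSO and 22.8 and 25.4 CPM with ACBI1 in H1975, and at 60.5 and 72.8 CPM with DMSO and 209 and 304 CPM with ACBI1 in HCC44. The inhibitor gene CDKN2B thus rose in HCC44 beside the division genes and fell slightly in H1975, with a difference of 2.47 ± 0.23 (adjusted p = 0.000219); the H1975 fall was not called without any 1 of the 4 H1975 libraries or with scaling by library totals. CCND1 had an interval of the difference of -0.26 to 0.68 and CDKN1A, the p53-driven inhibitor that fell in both lines, of -0.11 to 1.03. Histone genes, which are copied in S phase, differed in 15 of 64 (23.4%), a share near that of protein-coding genes (23.4%). Of these, 14 were more positive in HCC44. The count was lower without any 1 of the 4 H1975 libraries, HCC44 DMSO 2 or HCC44 ACBI1 2. Replication-dependent histone transcripts carry no poly(A) tail, so their counts depend on the RNA selection, which is not given in the sources used here.

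**Figure D3:**
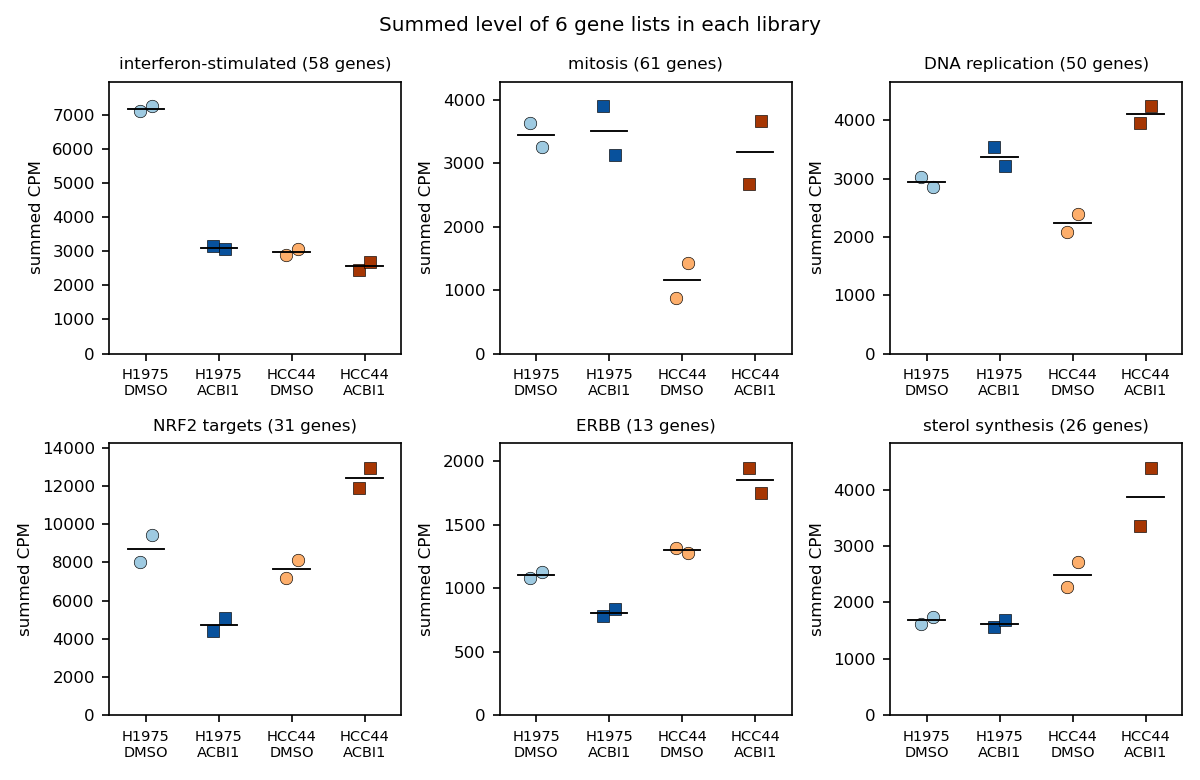
Summed TMM-scaled CPM of the tested members of 6 gene lists in each library, by group, with black lines at the group means. In H1975 the interferon-stimulated sum dropped to about the HCC44 level, from 7111 and 7260 to 3167 and 3054 CPM. In HCC44 it dropped less, from 2880.5 and 3079.9 to 2462 and 2688 CPM. The mitosis sum rose in HCC44 to about the H1975 level.

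NRF2 targets are the antioxidant and iron genes that the factor NFE2L2 activates. In H1975 15 of 31 fell and 4 rose, and in HCC44 15 rose and 5 fell. The response differed for 17, 16 more positive in HCC44 and TALDO1, an enzyme of the pentose phosphate pathway, more negative; the median difference was 0.52, from -0.34 in H1975 (-0.14 with library totals) and 0.24 in HCC44. The iron storage subunits FTH1 and FTL and the quinone reductase NQO1 went opposite ways. FTH1 was at 4054 and 5041 CPM with DMSO and 1467 and 1883 CPM with ACBI1 in H1975, and at 1956 and 2264 CPM with DMSO and 3359.6 and 3892 CPM with ACBI1 in HCC44. FTL was at 945 and 1212 CPM with DMSO and 616 and 773 CPM with ACBI1 in H1975, and at 1496 and 1737 CPM with DMSO and 3460.4 and 4093 CPM with ACBI1 in HCC44. NQO1 was at 253 and 276 CPM with DMSO and 143 and 172 CPM with ACBI1 in H1975, and at 178 and 200.2 CPM with DMSO and 316 and 367 CPM with ACBI1 in HCC44. In no case did the treatments overlap within a line, and FTH1 and NQO1 exchanged order between the lines. The differences were 2.22 ± 0.21, 1.86 ± 0.22 and 1.603 ± 0.16 (adjusted p = 0.000155, 0.000569 and 0.000205); the fall of FTL in H1975 was not called without H1975 DMSO 2 or H1975 ACBI1 1, and ferritin reads may be shared with their many processed pseudogenes.

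TXNRD1, thioredoxin reductase, and GCLM, a subunit of glutathione synthesis, rose in HCC44 alone, with differences of 1.19 ± 0.17 and 0.98 ± 0.20. NFE2L2 itself had an interval of the difference of -0.28 to 0.33, and HMOX1, haem oxygenase, which rose in both lines, of -0.74 to 0.83. The count was 10 without H1975 DMSO 2, H1975 ACBI1 1 or HCC44 DMSO 1 and 11 without H1975 ACBI1 2. Metallothioneins, which bind zinc and copper, gave 3 called differences of 7 tested, MT1E and MT2A in opposite directions and MT1A rising in both lines. MT2A was at 666 and 555 CPM with DMSO and 396 and 376 CPM with ACBI1 in H1975, and at 173 and 188 CPM with DMSO and 411 and 546 CPM with ACBI1 in HCC44. The treatments did not overlap, with differences of 2.07 ± 0.19 and 2.16 ± 0.24 for MT2A and MT1E (adjusted p = 0.000128 and 0.000573); these genes are near-identical copies, so their split is uncertain.

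Genes of the ERBB system responded more positively in HCC44. ERBB receptors are tyrosine kinases, among them EGFR, and are bound by EGF-like growth factors. Of 13 tested receptors, ligands and the feedback inhibitor ERRFI1, 7 (53.8%) differed, all more positive in HCC44 (AREG, EREG, NRG1, BTC, EGF, ERBB2 and ERRFI1). The median difference was 1.15, and 1.31 without HCC44 ACBI1 2. It was 0.76 with a filter of 1 CPM in 2 libraries, which left 11 genes, 6 of them differing. With library totals 7 were more positive and 1 more negative. Amphiregulin, AREG, went opposite ways. AREG was at 51.99 and 42.6 CPM with DMSO and 25.6 and 17.9 CPM with ACBI1 in H1975, and at 52.7 and 54.4 CPM with DMSO and 100.3 and 95.2 CPM with ACBI1 in HCC44. The groups did not overlap within a line, and the lines began level and ended apart, with a difference of 1.99 ± 0.22 (adjusted p = 0.000361). EREG was at 52.4 and 48.1 CPM with DMSO and 40.1 and 37.6 CPM with ACBI1 in H1975, and at 57.4 and 54.4 CPM with DMSO and 157 and 172 CPM with ACBI1 in HCC44. Epiregulin thus rose in both HCC44 libraries with ACBI1, with a difference of 1.93 ± 0.13 (adjusted p = 2.56e-05); its fall in H1975 was not called with library totals or without H1975 DMSO 1, H1975 ACBI1 1 or H1975 ACBI1 2. NRG1 was at 36.8 and 37.3 CPM with DMSO and 33.2 and 34.3 CPM with ACBI1 in H1975, and at 52.1 and 57.8 CPM with DMSO and 159 and 159.9 CPM with ACBI1 in HCC44. Neuregulin 1, the ligand of ERBB3 and ERBB4, thus rose in HCC44 alone (1.67 ± 0.13, adjusted p = 4.05e-05). Among the receptors EGFR had an interval of the difference of -0.05 to 1.09 and ERBB3 of -0.86 to 0.61; ERBB2 differed by 0.77 ± 0.18, while its opposite call stood in only 3 of 16 alternatives. ERRFI1 lost its call without H1975 DMSO 2 (edgeR adjusted p 0.0571).

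TGF-beta family signalling differed at several levels. TGF-beta ligands bind paired receptor kinases that activate SMAD factors, and BMP signals of the same family drive the ID genes, inhibitors of helix-loop-helix factors. Of 42 tested genes 17 differed, 15 more positive in HCC44; the others were FST and GDF15, a secreted inhibitor of activin and a stress-induced ligand. Among the ligands, TGFB2 rose in HCC44 alone. TGFB2 was at 71.2 and 82.97 CPM with DMSO and 85.5 and 86.6 CPM with ACBI1 in H1975, and at 34.7 and 43.3 CPM with DMSO and 177 and 190.2 CPM with ACBI1 in HCC44. HCC44 began below H1975 and ended above it, a difference of 2.08 ± 0.17 (adjusted p = 6.53e-05). The receptor TGFBR2 fell in H1975 alone. TGFBR2 was at 109.5 and 121 CPM with DMSO and 50.5 and 51.5 CPM with ACBI1 in H1975, and at 219 and 233 CPM with DMSO and 221 and 231 CPM with ACBI1 in HCC44. Its difference was 1.17 ± 0.12 (adjusted p = 0.000218). Among targets, ID2 rose in HCC44. ID2 was at 9.44 and 7.35 CPM with DMSO and 10.4 and 7.99 CPM with ACBI1 in H1975, and at 12.4 and 7.85 CPM with DMSO and 41.5 and 66.4 CPM with ACBI1 in HCC44. Its difference was 2.28 ± 0.41 (adjusted p = 0.00703), and those of ID1 and ID3 were 1.39 ± 0.30 and 1.21 ± 0.29. ID1 lost its call without HCC44 ACBI1 2 (edgeR adjusted p 0.0599); ID3 lost its call without H1975 DMSO 1, HCC44 DMSO 2 or HCC44 ACBI1 2 (edgeR adjusted p 0.0597 to 0.0661). SKIL, a SMAD repressor and feedback target, went opposite ways (1.25 ± 0.22), though its opposite call was lost without H1975 DMSO 1, H1975 ACBI1 1, HCC44 DMSO 1 or HCC44 ACBI1 2.

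Integrins, the receptors for fibronectin, collagen and laminin, differed in 11 of 18 subunits, 9 of them more positive in HCC44, with a median difference of 0.94. ITGB2 was at 44.4 and 52.9 CPM with DMSO and 83.5 and 98.6 CPM with ACBI1 in H1975, and at 172 and 165 CPM with DMSO and 57.7 and 63.3 CPM with ACBI1 in HCC44. ITGB2, the beta subunit best known from leukocytes, thus ran against the others, with a difference of -2.38 ± 0.16 (adjusted p = 2.56e-05), as did ITGA11, a collagen receptor subunit. ITGA2 was at 187 and 145 CPM with DMSO and 92.3 and 67.01 CPM with ACBI1 in H1975, and at 89.01 and 99.2 CPM with DMSO and 148 and 227 CPM with ACBI1 in HCC44. ITGAV was at 186 and 193 CPM with DMSO and 87.4 and 100.4 CPM with ACBI1 in H1975, and at 171 and 224 CPM with DMSO and 239 and 329 CPM with ACBI1 in HCC44. The collagen receptor subunit ITGA2 and ITGAV, which pairs with several beta subunits, fell in H1975 and rose in HCC44 (2.05 ± 0.33 and 1.54 ± 0.23; adjusted p = 0.00601 and 0.00246). These opposite calls were lost without HCC44 DMSO 1, HCC44 ACBI1 2 or H1975 DMSO 1, and also without H1975 ACBI1 2 for ITGA2 and without H1975 DMSO 2 for ITGAV. ITGB5 differed by 1.47 ± 0.23, and ITGB1, the most widely shared beta subunit, had an interval of the difference of -0.304 to 0.53.

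Of 33 collagen and laminin genes, 21 fell in H1975 and none rose, and in HCC44 15 fell and 2 rose. The response differed for 14, 10 more positive in HCC44 and 4 more negative (COL13A1, COL16A1, COL18A1 and COL8A1). LAMB1 was at 26.7 and 21.7 CPM with DMSO and 3.06 and 2.47 CPM with ACBI1 in H1975, and at 483 and 584 CPM with DMSO and 379 and 530.3 CPM with ACBI1 in HCC44. LAMB1, a basement membrane laminin chain, fell in H1975 and was not called in HCC44 (2.895 ± 0.27, adjusted p = 0.000266). COL5A1, a fibrillar collagen chain, changed by -2.55 in H1975 and -0.51 in HCC44. COL1A1 was at 68.9 and 44.4 CPM with DMSO and 28.9 and 22.9 CPM with ACBI1 in H1975, and at 89.5 and 71.1 CPM with DMSO and 200.4 and 404 CPM with ACBI1 in HCC44. COL1A1, the main collagen of connective tissue, had a difference of 3.04 ± 0.50 (adjusted p = 0.00746). COL1A1 lost its call without H1975 DMSO 1, H1975 ACBI1 1 or H1975 ACBI1 2 (edgeR adjusted p 0.0711 to 0.106) and with no filter on low counts (0.06702). COL1A1 is also the fibroblast marker whose sum moved the same way. LUM, another of these markers, also rose in HCC44, from 0.78 and 0.96 CPM with DMSO to 3.42 and 4.56 CPM with ACBI1. In H1975 LUM was at most 0.19 CPM. DCN was at 0 in all 8 libraries, and PDGFRA was at most 0.064 CPM. The part of other cells in these results was not tested. Of 24 mesenchymal genes 12 differed, 10 more positive in HCC44, ACTA2 and MYL9, which encode contractile proteins, being the exceptions, and the count was 6 without HCC44 DMSO 1. VIM, the intermediate filament of mesenchymal cells, fell in H1975 alone (1.496 ± 0.22, adjusted p = 0.00183).

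Epithelial genes did not run the other way. Of 38, 13 (34.2%) differed, 10 of them more positive in HCC44. The exceptions were CRB3, a polarity protein gene, and SPINT1 and ST14, a protease inhibitor and its target. KRT7, a simple epithelial keratin, went opposite ways. KRT7 was at 3124 and 2985 CPM with DMSO and 1604 and 1296 CPM with ACBI1 in H1975, and at 423 and 459 CPM with DMSO and 751 and 1122 CPM with ACBI1 in HCC44. The treatments did not overlap within a line, and the difference was 2.16 ± 0.25 (adjusted p = 0.000757). KRT18, of the same filaments, fell in H1975 alone (1.400 ± 0.16). EPCAM, an epithelial adhesion protein, differed by 0.99 ± 0.17, and CDH1, E-cadherin, by 1.600 ± 0.49, which was not called (adjusted p = 0.06598). Of 15 keratins 8 differed, 5 more positive in HCC44 and 3 more negative (KRT10, KRT15 and KRT16). The lineage factors of lung and foregut differed in 9 of 19, with GATA6 and SOX4 opposite: 1.74 ± 0.24 and 1.36 ± 0.13 (adjusted p = 0.00132 and 0.000155).

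**Figure D4:**
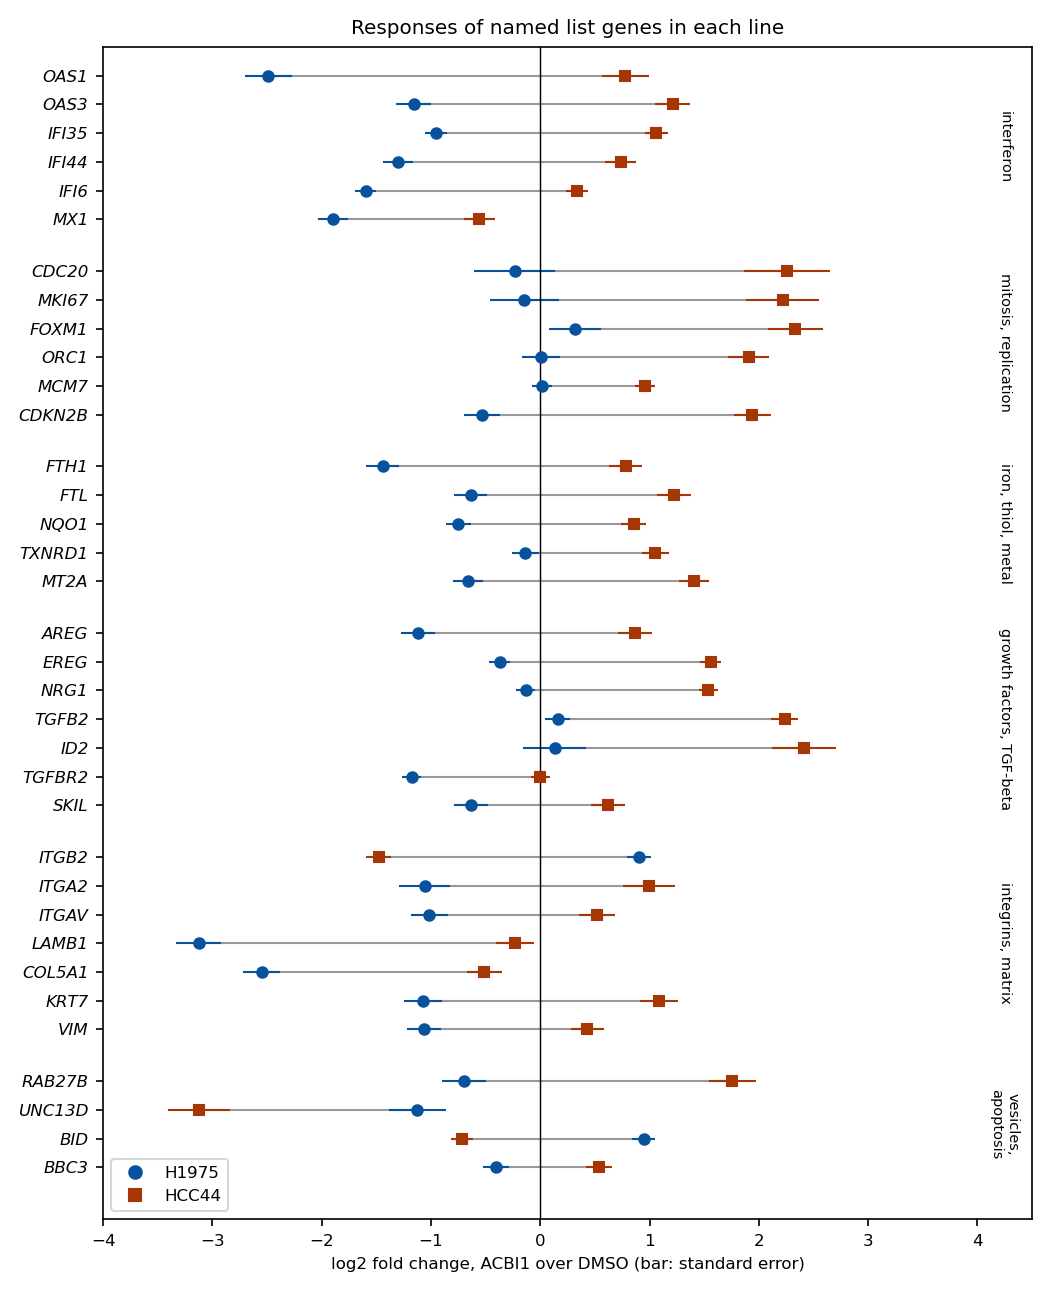
Log2 fold change from DMSO to ACBI1 in H1975 (blue circles) and HCC44 (brown squares) for named members of the gene lists, with bars of 1 standard error. Most blue circles lie left of brown squares, and ITGB2, UNC13D and BID are reversed. The members shown were picked by hand, so the side on which most points lie describes that choice.

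Of 26 sterol synthesis genes, 16 rose in HCC44 and none fell, and in H1975 4 rose and 2 fell. The enzymes make cholesterol from acetyl-CoA and are switched on by SREBF2 when sterol is short. The response differed for 9 (34.6%), all more positive in HCC44, with medians of 0.04 in H1975 (0.25 with library totals) and 0.59 in HCC44. FDPS was at 148 and 146 CPM with DMSO and 166 and 169.8 CPM with ACBI1 in H1975, and at 250.01 and 298 CPM with DMSO and 644 and 931 CPM with ACBI1 in HCC44. FDPS, which makes farnesyl diphosphate, thus rose in HCC44 alone (1.33 ± 0.22, adjusted p = 0.00312). HMGCS1 was at 53.8 and 59.6 CPM with DMSO and 42.1 and 44.02 CPM with ACBI1 in H1975, and at 39.4 and 46.2 CPM with DMSO and 73.005 and 116 CPM with ACBI1 in HCC44. HMGCS1, at the entry of the pathway, rose in HCC44, while both H1975 libraries with ACBI1 lay below those with DMSO. Its difference was 1.54 ± 0.27 (edgeR adjusted p = 0.00513), and it was not called in opposite directions. The count was 5 without H1975 DMSO 2, H1975 ACBI1 1 or HCC44 DMSO 1, and with library totals 5 were more positive and 1 more negative. In fatty acid synthesis 4 of 13 differed, FADS2, ELOVL6, SREBF1 and ME1, all more positive in HCC44, and FADS2, a desaturase, by 1.46 ± 0.24; this count was 1 without HCC44 DMSO 1 and 2 without H1975 DMSO 2, H1975 ACBI1 1, H1975 ACBI1 2 or HCC44 DMSO 2.

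Stress lists differed from one another. Of 45 ATF4 response genes 15 differed (33.3%, against 23.4% of protein-coding genes), 6 more positive and 9 more negative in HCC44. The median difference was -0.06. With library totals 4 were more positive and 14 more negative, with a median of -0.17. SLC38A2 was at 404 and 396 CPM with DMSO and 180.2 and 182 CPM with ACBI1 in H1975, and at 468 and 459 CPM with DMSO and 608 and 786 CPM with ACBI1 in HCC44. SLC38A2, a transporter of neutral amino acids, went opposite ways (1.73 ± 0.16, adjusted p = 0.000119). GDF15 was at 151 and 178 CPM with DMSO and 115 and 130.3 CPM with ACBI1 in H1975, and at 172 and 185 CPM with DMSO and 35.2 and 43.5 CPM with ACBI1 in HCC44. GDF15, a secreted stress cytokine, fell in both lines and more in HCC44 (-1.75 ± 0.17, adjusted p = 0.000155). ATF4 had an interval of the difference of -0.11 to 0.46. The count was 8 without H1975 ACBI1 2 or HCC44 DMSO 1. Of 18 endoplasmic reticulum chaperone and unfolded protein genes, 16 fell in HCC44 and none rose, and in H1975 7 fell and 1 rose. The median difference was -0.33, and 3 genes differed (16.7%), a share below the 18.6% of all tested genes. These were ERN1, SDF2L1 and HSP90B1, all more negative in HCC44. More did without HCC44 ACBI1 1, and 6 did with library totals. HSP90B1 lost its call without H1975 DMSO 1, H1975 ACBI1 1, H1975 ACBI1 2, HCC44 DMSO 2 or HCC44 ACBI1 2 (edgeR adjusted p 0.0726 to 0.158). SQSTM1, the autophagy receptor p62, rose in HCC44 alone (1.73 ± 0.13, adjusted p = 5.49e-05), while lysosome and autophagy genes were mixed, 8 of 34 more positive and 5 more negative. With library totals these were 4 and 7, and in all 6 differed without HCC44 DMSO 1 and 7 without H1975 ACBI1 1. Hypoxia and glycolysis genes differed in 15 of 36 (41.7%), 9 more positive and 6 more negative in HCC44. PKM, pyruvate kinase, changed by -1.03 in H1975 and 0.02 in HCC44. HIF1A was the single differing gene of 10 of the VHL ligase and HIF (0.74 ± 0.16); HIF1A lost its call without HCC44 DMSO 1 (edgeR adjusted p 0.05602).

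Apoptosis genes differed one by one. Of 16 BCL2 family members 7 differed (43.75%, against 23.4% of protein-coding genes). In HCC44 4 were more positive (BBC3, BMF, BOK and HRK) and 3 more negative (BCL2L1, BID and BIK). BID was at 14.2 and 15.6 CPM with DMSO and 26.7 and 30.8 CPM with ACBI1 in H1975, and at 103 and 107 CPM with DMSO and 62.1 and 65.9 CPM with ACBI1 in HCC44. BID, which carries the death receptor signal to mitochondria, thus rose in H1975 and fell in HCC44 (-1.66 ± 0.15, adjusted p = 9.95e-05). BBC3, known as PUMA, was called the other way (0.95 ± 0.17), but its H1975 fall was not called with library totals or without H1975 DMSO 1, H1975 DMSO 2 or H1975 ACBI1 1. MCL1, an anti-apoptotic member, fell in both lines with an interval of the difference of -0.32 to 0.33. The count was 4 without H1975 ACBI1 1, HCC44 DMSO 1 or HCC44 DMSO 2. Of 18 p53 targets 6 differed (33.3%), and fewer did without HCC44 DMSO 2. Among them TP53I3, a quinone oxidoreductase, went opposite ways (2.38 ± 0.23, edgeR adjusted p = 0.000154).

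Secretory vesicle genes of the RAB27 and SYTL group differed in 5 of 15 (33.3%). Beside RAB3B and SYTL3, the GTPase RAB27B rose in HCC44 and fell in H1975 (2.46 ± 0.29, adjusted p = 0.000706), with the H1975 fall lost with library totals or without any 1 of the 4 H1975 libraries. UNC13D was at 83.9 and 65.7 CPM with DMSO and 39.9 and 28.6 CPM with ACBI1 in H1975, and at 111 and 108 CPM with DMSO and 9.11 and 15.9 CPM with ACBI1 in HCC44. UNC13D, which primes granules for release, fell in both lines and more in HCC44 (-1.999 ± 0.37, adjusted p = 0.0102); UNC13D lost its call without H1975 DMSO 2 (edgeR adjusted p 0.0552). EXPH5, a RAB27 effector, was the other more negative member. RAB27A had an interval of the difference of -0.603 to 0.16.

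The SWI/SNF genes themselves differed in 12 of 28 (42.9%, against 23.4% of protein-coding genes). In HCC44 9 were more positive and 3 more negative (ACTL6A, DPF2 and DPF3). ARID1B was at 83.8 and 103 CPM with DMSO and 76.6 and 85.3 CPM with ACBI1 in H1975, and at 59.8 and 57.7 CPM with DMSO and 131 and 152 CPM with ACBI1 in HCC44. ARID1B, which alternates with ARID1A in the BAF form, rose in HCC44 alone (1.47 ± 0.17, adjusted p = 0.000343). Of the degrader's targets, SMARCA2 fell in H1975 and was not called in HCC44 (0.74 ± 0.17, adjusted p = 0.0136). SMARCA2 lost its call without H1975 DMSO 2 or HCC44 DMSO 1 (edgeR adjusted p 0.0533 to 0.0606). SMARCA4 and PBRM1 RNA had intervals of the difference of -0.32 to 0.25 and -0.45 to 0.22; RNA does not show whether the proteins were degraded. SMARCC2, a core scaffold subunit, was called in opposite directions (-0.37 and 0.66), a call lost with upper-quartile factors or library totals and without H1975 DMSO 1, H1975 ACBI1 1 or H1975 ACBI1 2. The list count was 7, 5 and 6 without H1975 ACBI1 2, HCC44 DMSO 1 and HCC44 DMSO 2. Of 31 Polycomb genes 5 differed (BMI1 and PHC2 more positive, CBX8, PCGF5 and PHC3 more negative), a share near that of all genes; 3 did without HCC44 DMSO 2, and with library totals 1 was more positive and 4 more negative.

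Semaphorins headed 2 of the classes of genes that changed in 1 line or unequally. SEMA3C, a secreted guidance cue, rose in HCC44 alone. SEMA3C was at 156 and 168 CPM with DMSO and 164 and 190.3 CPM with ACBI1 in H1975, and at 16.8 and 20.8 CPM with DMSO and 196 and 174 CPM with ACBI1 in HCC44. The 2 HCC44 ACBI1 libraries reached the H1975 level, with a difference of 3.17 ± 0.17 (adjusted p = 6.73e-06). SEMA3F was at 16.4 and 19.7 CPM with DMSO and 11.6 and 14.3 CPM with ACBI1 in H1975, and at 201 and 208 CPM with DMSO and 20.1 and 18.9 CPM with ACBI1 in HCC44. SEMA3F, of the same class, thus fell in HCC44 to the H1975 level (-2.91 ± 0.18, adjusted p = 1.4e-05). Of 48 axon guidance genes 18 differed, 11 more positive and 7 more negative in HCC44, or 8 and 8 with library totals.

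Genes that fell in HCC44 alone included TGM2, a protein cross-linking transglutaminase (-2.34 ± 0.23), PLAC1, a placental gene (-3.07 ± 0.31), ARG2, the mitochondrial arginase (-2.12 ± 0.37), and OSBPL10, an oxysterol-binding protein gene (-2.001 ± 0.17). TGM2 was at 183 and 224 CPM with DMSO and 192 and 243 CPM with ACBI1 in H1975, and at 168 and 213 CPM with DMSO and 37.01 and 43.3 CPM with ACBI1 in HCC44. In H1975 the 2 treatments overlapped. Others that rose in HCC44 alone were CENPI, a centromere protein (2.45 ± 0.36), CDCA3, a cell division gene (2.58 ± 0.52), and HAS3, a hyaluronan synthase (2.57 ± 0.53). CDCA3 lost its call without H1975 DMSO 1 (edgeR adjusted p 0.0574). HAS3 lost its call without H1975 DMSO 1, H1975 DMSO 2 or H1975 ACBI1 2 (edgeR adjusted p 0.0624 to 0.103) and with no filter on low counts (0.117).

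In H1975 alone, ECH1, a peroxisomal and mitochondrial fatty acid enzyme, SLC27A2, an acyl-CoA synthetase for very long chains, TNXB, tenascin X, and MESP1, a mesoderm factor, rose. ECH1 was at 1.46 and 2.38 CPM with DMSO and 9.71 and 14.03 CPM with ACBI1 in H1975, and at 100.03 and 100.1 CPM with DMSO and 86.8 and 119 CPM with ACBI1 in HCC44. TNXB was at 5.36 and 6.14 CPM with DMSO and 24.4 and 31.01 CPM with ACBI1 in H1975, and at 66.4 and 54.3 CPM with DMSO and 66.8 and 56.9 CPM with ACBI1 in HCC44. Both genes rose in H1975 towards the HCC44 level, whose change was not called, with differences of -2.58 ± 0.35 and -2.23 ± 0.21 (adjusted p = 0.00223 and 0.000143). FILIP1L, FBXL13, an F-box protein gene, VCAN, the matrix proteoglycan versican, and KITLG, the ligand of the receptor KIT, fell in H1975 alone. VCAN was at 313 and 384 CPM with DMSO and 98.998 and 111 CPM with ACBI1 in H1975, and at 7.14 and 6.72 CPM with DMSO and 6.401 and 8.28 CPM with ACBI1 in HCC44. KITLG was at 38.8 and 37.1 CPM with DMSO and 13.2 and 12.6 CPM with ACBI1 in H1975, and at 12.9 and 13.96 CPM with DMSO and 12.6 and 18.02 CPM with ACBI1 in HCC44. For KITLG the H1975 level fell to that of HCC44, and for VCAN it stayed above, with differences of 1.74 ± 0.23 and 1.82 ± 0.19 (adjusted p = 0.000785 and 0.000257).

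Among genes that changed the same way by unequal amounts, the sulfate transporter SLC26A2 rose more in HCC44. SLC26A2 was at 37.9 and 40.3 CPM with DMSO and 58.99 and 62.95 CPM with ACBI1 in H1975, and at 21.8 and 24.2 CPM with DMSO and 167 and 220.000 CPM with ACBI1 in HCC44. Its difference was 2.43 ± 0.18 (adjusted p = 3.66e-05). CCDC74A and CCDC74B, near-identical copies that may share reads, rose more in HCC44 as well, while NKD2, an inhibitor of WNT signalling, rose more in H1975 (-1.701 ± 0.28). AGT, angiotensinogen, and FUT1, a fucosyltransferase, fell more in HCC44 (-2.85 ± 0.39 and -2.599 ± 0.35), and KLHDC7B and SHISAL1 fell more in H1975 (2.94 ± 0.31 and 2.93 ± 0.30).

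Gene families set the background of these results. Cytosolic ribosomal protein genes differed in 3 of 79 (RPL7, RPL14 and RPS4X). Mitochondrial ribosomal protein genes differed in 10 of 76, a lower share than that of all genes, but all 10 were more negative in HCC44, and their median difference was -0.24. The differing genes of complex I, 5 of 37 (NDUFA7, NDUFA8, NDUFB9, NDUFS7 and NDUFS8), and of cytochrome c oxidase, 2 of 20 (COX10 and COX17), were also more negative. Their shares, 13.5% and 10%, were likewise below that of all genes. MRPS33 was at 52.2 and 54.004 CPM with DMSO and 71.3 and 72.3 CPM with ACBI1 in H1975, and at 29.01 and 29.9 CPM with DMSO and 20.2 and 20.1 CPM with ACBI1 in HCC44. MRPS33, of the small mitochondrial subunit, was opposite between the lines (-0.98 ± 0.13, adjusted p = 0.000791). Solute carriers differed in 55 of 252 (21.8%), 19 more positive and 36 more negative. Zinc finger ZNF genes differed in 71 of 480 (14.8%), 47 more positive and 24 more negative. These family counts depended on the scaling and on single libraries. With library totals 6 cytosolic and 25 mitochondrial ribosomal protein genes, 13 complex I and 5 cytochrome c oxidase genes differed, the solute carriers split 13 to 46 and the ZNF genes 36 to 32. On leaving out 1 library the cytosolic ribosomal count fell to 0 (without H1975 DMSO 2, H1975 ACBI1 1 or HCC44 DMSO 1), the complex I count to 0 (without HCC44 DMSO 1 or HCC44 DMSO 2) and the cytochrome c oxidase count to 1. The mitochondrial ribosomal count fell to 4 (without H1975 ACBI1 2, HCC44 DMSO 1 or HCC44 DMSO 2), and the solute carrier and ZNF counts to 26 and 39 (both without HCC44 DMSO 1). By annotation, 23.4% of 14382 protein-coding genes, 14% of 2042 long non-coding RNA genes and 2.73% of 513 pseudogenes differed.

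**Figure D5:**
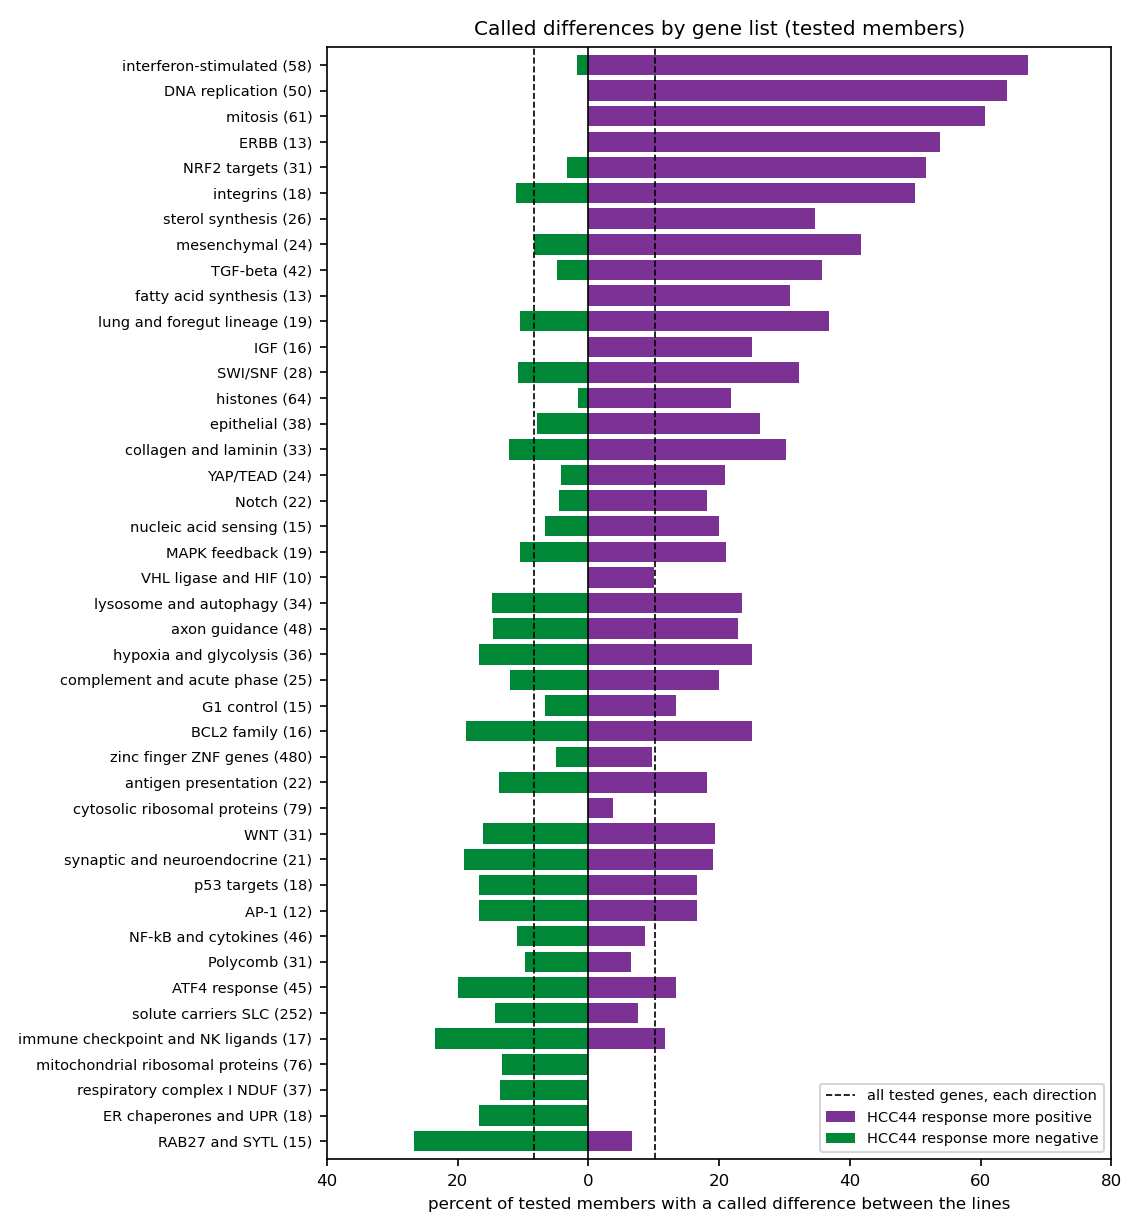
Percent of tested members of each gene list or family (number tested in brackets) whose response differed between the lines, drawn right where HCC44 was more positive and left where it was more negative; dashed lines mark all tested genes (10.2% and 8.4%). Interferon-stimulated genes, with 39 of 58, DNA replication, with 32 of 50, and mitosis, with 37 of 61, extend furthest right. Mitochondrial ribosomal proteins, respiratory complex I and the endoplasmic reticulum chaperones extend only left.

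Some counts may hold reads of another gene, because the strand setting of the counting is not given in the sources used here. More than 10% of the exonic bases lie under another gene for PAQR5, ARG2, ECH1, SLC27A2, TAPBPL, CIITA, HMGCS1, FDPS, FTH1, NQO1, TGFB2, VIM, PHC3, GATA6, SQSTM1, KRT18, NDUFB9, NDUFS7, COX17, FOXM1, CCND1, NFE2L2, BCL2L1, IFITM2, HLA-B, ACTA2, COL18A1 and BMI1. The difference call of ARID1A, BMF, CIITA, COX10, ELOVL6, ME1, NDUFA8, NDUFB9, NDUFS7, NDUFS8, PCGF5, PHC3, RPL14, RPL7, RPS4X, SREBF1 and TAPBPL was lost in at least 1 alternative, mostly on leaving out 1 library.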

How the data were processed

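RNA of 8 libraries was sequenced after preparation with the NEBNext Ultra II DNA library kit, per the labels. The authors deposited raw read counts per gene name and library; TopHat2 2.1.1, HTSeq 0.11.0 and the build hg38 are named in the submitters' processing notes, while annotation release, strand setting and RNA selection are not given in the sources used here. The 5 summary rows of each deposited count file, 14.3% to 15.8% of its total, were left out. A group-means model over all 8 libraries was fitted in edgeR 4.0.16 (R 4.3.3; filterByExpr, TMM factors, robust quasi-likelihood F-test, 4 residual degrees of freedom), and the difference between the lines was the contrast of both ACBI1 effects, with Benjamini-Hochberg adjustment over all 21307 genes. A gene called opposite passed adjusted p 0.05 in each line, with opposite signs, and for the difference. CPM are TMM-scaled. Fits were tested on simulated data, where the share of false calls lay above the nominal rate and many true differences, large ones included, were missed. Far fewer genes were changed there than were called here, so these rates need not hold for the data. Gene positions are GENCODE's on the same build.

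Genes with a mean of 5 CPM or more in some group of both lines were named by this rule: the 8 in each direction with the strongest opposite changes (the larger of the weaker line's change) and no overlap of treatments; the 4 largest differences per class that changed in 1 line (at least 1 on the log2 scale there, under 0.2 in the other); the 3 largest per class that changed the same way unequally; up to 4 differing members per list; and, whatever their level, key members by role. Some genes that the rule takes are not reported here. Genes named only because a count was small were chosen after their values were seen. Members and lists were chosen with earlier results of these data known. Alternatives were DESeq2 1.42.0, other size factors and filters, a non-robust dispersion, a replicate block, a stricter threshold and leaving out each library.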

Additional observations from a re-analysis of the deposited data

Results flagged for a closer look

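The response to ACBI1 was tested as different between H1975 and HCC44 for 3967 genes, of which 476 changed in opposite directions. The 16 genes with the strongest opposite changes are listed here for that reason, with the log2 difference, HCC44 minus H1975. The difference was positive for DNER (5.68), FN1 (3.66), KRT81 (3.62), SPOCK1 (3.18), THBS1 (2.83), SERTAD4 (2.54), NREP (2.48) and OAS3 (2.37). It was negative for SYTL3 (-3.76), OSBP2 (-3.47), RAB3B (-3.31), CXCL16 (-2.55), SH2D2A (-2.53), COSMOC (-2.37), PAQR5 (-2.07) and HSD11B2 (-1.98). No group held enough libraries for a check of single outlying libraries.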

How the results depend on the processing

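The 3 main counts stayed within 1.5 times under DESeq2 (4263 differing, 474 opposite and 3082 in 1 line), other size factors, other filters and a non-robust dispersion. At an adjusted p under 0.01, 1654 genes differed, 151 were opposite and 1304 changed in 1 line. Leaving out 1 library gave 2341 to 4134 differing, 232 to 548 opposite and 1739 to 2936 in 1 line. With 1 library left in a group, that library is assumed to vary like the others. Without adjustment, 6864 genes passed p 0.05 in edgeR and 6153 in DESeq2. Library totals kept 307 of the 476 opposite calls and 88.5% of the differing calls. Of the genes taken by the naming rule whose difference was called, 23 lost the call with library totals, 18 with no filter, 11 with DESeq2-type size factors, 5 with DESeq2 and 28 to 71 on leaving out 1 library (71 without H1975 ACBI1 2 or HCC44 DMSO 1), and none changed sign.

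With the replicate number as a block within each line, 6358 genes differed, 1024 were opposite and 4055 changed in 1 line. Same-numbered libraries deviated together with a correlation of 0.374 in H1975 and 0.109 in HCC44, but no label ties a number to a batch or culture, so no pairing was assumed. With 2 libraries per group, a difference that was not called may still be large.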

Other observations

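Other gene groups differed without a common direction. The zinc finger genes ZNF219 and ZNF114 rose in HCC44 alone. The retinaldehyde dehydrogenase gene ALDH1A3 rose in H1975 and fell in HCC44 (difference -2.04 ± 0.20, edgeR adjusted p = 0.000183), while PDE4D, a cAMP phosphodiesterase, fell in H1975 and rose in HCC44 (difference 1.13 ± 0.13, edgeR adjusted p = 0.000463). S100A6, a calcium-binding protein gene, fell in H1975 alone (difference 1.87 ± 0.24, edgeR adjusted p = 0.00133). Complement C1S, a serine protease of the classical pathway, fell in H1975 alone (difference 2.96 ± 0.29, edgeR adjusted p = 0.000155), and AGT fell in both. Among non-coding RNAs, BCAN-AS1 rose in H1975 and fell in HCC44 (difference -1.94 ± 0.16, edgeR adjusted p = 7.09e-05) and LINC00511 fell in H1975 alone (difference 1.26 ± 0.22, edgeR adjusted p = 0.00362); 71 of 547 LINC genes and 131 of 848 antisense-named genes differed, against 18.6% of all tested genes, or 41 and 73 without HCC44 DMSO 1.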
